A study of Mus musculus with 721 samples.

Results

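Neurog3 and the transcript of its eGFP reporter were followed across 658 single cells of the embryonic mouse pancreas. They are 2 entries of the 32913 in the deposited gene table, taken by name and not by a cut on their values. Earlier results of these data were known when they were chosen. The embryos are labelled as a Neurogenin 3-eGFP line, and each cell was sorted for eGFP fluorescence into a well of a plate before SMART-seq, which copies whole polyadenylated transcripts. All groups carried the reporter, and none held cells from outside the eGFP gate. The labels used here give neither the reporter construct nor how many copies of Neurog3 the animals keep, and they name no embryos, strain or pooling.

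The cells came from embryonic days E11.5, E12.5, E13.5, E14.5 and E15.5, and the 3 later days were sequenced in 2 runs. Each day in each run was taken as 1 cell set, which gave 8 sets, since cells of a set are not replicates and no animal is named. Of 721 deposited cells, 658 were kept, which had no fewer than 100000 fragments and 1500 or more genes at 1 FPKM (the deposited unit, from fragments per kilobase of transcript). E11.5 gave 73 cells and E12.5 gave 90. Run 2 gave 78 cells for E13.5, 85 for E14.5 and 82 for E15.5, and run 1 gave 68, 94 and 88 for those days. P-values over sets measure the spread between these sets, which may be technical.

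Neurog3 is a basic helix-loop-helix transcription factor that starts the endocrine programme. It is switched on for a short time in cells of the pancreatic epithelium, and mice without it form no islet cells. Notch signalling through Hes1 holds it down in neighbouring progenitors, while factors such as Neurod1, Insm1, Pax4 and Nkx2-2 act after it. The granin Chgb, the transcription factor Fev and the islet hormones mark later steps. The sort read the eGFP protein, whereas the files hold transcripts, so that the gate and the eGFP transcript are separate measures.

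Neurog3 (ENSMUSG00000044312) lies at chr10:62133090-62134763 on the plus strand of GRCm38, also called mm10, and has 2 exons in GENCODE vM21. Its exons share 273 of 1540 bases, or 17.7%, with exons of 2010107G23Rik on the other strand, which that annotation names Fam241b. No source states a strand-specific library, so reads in the shared part cannot be told apart. The mean level of 2010107G23Rik was higher in cells with Neurog3 than in other cells in all 8 sets, and at E13.5 in run 2 it was 190 FPKM in cells with Neurog3, against 31.8 FPKM in the other cells. The eGFP entry spans 717 bases.

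The 250 bases before the start of Neurog3 are shown because they lie where the gene's transcription begins. They span chr10:62132840-62133089 on the plus strand, from the RefSeq table for GRCm38.p6. The same stretch of Cbfa2t3, a corepressor gene listed as downstream of Neurog3, is set beside it, since it had the lowest adjusted p among the listed factors that were higher with Neurog3 and had an entry in that table. It spans chr8:122699110-122699359 on the minus strand and belongs to the first listed of 2 start sites. Capitals mark the E box CANNTG, the kind of word that basic helix-loop-helix factors bind.
Neurog3: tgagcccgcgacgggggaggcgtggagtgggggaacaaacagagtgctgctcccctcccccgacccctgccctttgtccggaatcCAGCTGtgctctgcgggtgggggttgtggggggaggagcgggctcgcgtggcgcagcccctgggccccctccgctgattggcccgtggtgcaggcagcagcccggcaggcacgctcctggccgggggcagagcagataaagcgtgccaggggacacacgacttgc
Cbfa2t3: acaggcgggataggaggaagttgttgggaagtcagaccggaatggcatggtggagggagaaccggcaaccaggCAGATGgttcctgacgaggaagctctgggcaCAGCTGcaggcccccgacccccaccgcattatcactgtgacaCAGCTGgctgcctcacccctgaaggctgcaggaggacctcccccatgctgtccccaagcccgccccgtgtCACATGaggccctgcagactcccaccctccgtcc
The Neurog3 stretch held 1 E box, of the form CAGCTG, and the Cbfa2t3 stretch held 4. The stretch at the other start site of Cbfa2t3 held 1. An E box stood in 66.2% of 32851 promoters of this length, and CAGCTG, which is one of its forms, in 13%. Of the 20 factors listed as downstream of Neurog3, 14 matched the table, and 8 of these (57.1%) held an E box at the first listed start site. Only that site was counted for each factor, whereas the share over all promoters counts every listed site. Myt1 and Pax6 held no E box at the first listed site but at least 1 at each of their other sites. The form CAGATG stood in 4 of the 14 (28.6%) and in 14.4% of all promoters, and CAGCTG in 3 of the 14 (21.4%). Another word searched, CACNAG, went the other way, with 2 of the 14 (14.3%) against 36.7% of all promoters. The other start site of Pax6, which was not counted, also held CACNAG. Both strands were searched, and a match describes letters in this window only.

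The deposited values were not scaled to the depth of a cell. The lowest eGFP value above 0 was 3.3 to 3.63 FPKM in each of the 7 sets that had one, and the 21 cells with 1 fragment, at up to 3.85 FPKM, held 143605 to 858831 fragments in all. In run 2 all 79 cells with eGFP held a whole multiple of 3.41 FPKM, within 0.01 of a multiple. Within each set the summed FPKM of a cell followed its fragments, with Pearson's r of 0.96 to 0.99 across cells, given as a description. A cell was counted as having Neurog3 at 10 FPKM or more, which is at least 8 fragments in run 2, and as having eGFP transcript at 1 FPKM or more, which is any fragment. Kept cells held 101675 to 1990000 fragments, and the medians of the 8 sets lay between 480057 and 844416.

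Some facts of the whole series touch both transcripts. Cells with at least 3 markers of another lineage at 10 FPKM or more made up 64.4% of the E11.5 set, 77.8% of the E12.5 set and 1.06% to 8.82% of each later set. Transcripts above 60% GC stood low against those of 40 to 50% at E12.5 and in run 1 of E13.5, by medians of -1.31 and -1.26 on the log2 scale, and Neurog3 itself has 57.3% GC. The share of cells with Y-linked transcripts was 0% in every E13.5 and E14.5 set and 95.9% to 100% in those of the other days, so that differences of E13.5 and E14.5 from the other days cannot be told apart from sex. The wells drew on 96 index pairs, of which 67 occurred in all 8 sets. One pair of E14.5 cells from different runs correlated at 0.864, against 0.741 for the next pair, and both cells were kept.

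Neurog3 was rare in the early sets and common in the later ones. The E11.5 set held it in 10 of 73 cells (13.7%, 95% exact interval 6.77 to 23.8%), and the E12.5 set in 8 of 90 (8.89%, 3.92 to 16.8%). For E13.5 the share was 76.9% in run 2 and 63.2% in run 1. For E14.5 it was 55.3% in each run, and for E15.5 it was 50% in run 2 and 51.1% in run 1. The highest share was therefore in run 2 of E13.5 and the lowest in the E12.5 set. The intervals of the 4 sets of the last days overlapped, from 38.7 to 61.3% in run 2 of E15.5 to 44.1 to 66.1% in run 2 of E14.5. These intervals cover counting error only.

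Levels per cell spread widely within each set. The lowest, median and highest levels of Neurog3 were 0, 0 and 1137 FPKM in the E11.5 set and 0, 0 and 331 FPKM in the E12.5 set. For E13.5 the median was 403 FPKM in run 2 and 148 FPKM in run 1, with highest cells at 7995 and 3759 FPKM in the same order. For E14.5 the medians were 91.7 FPKM in run 2 and 81.3 FPKM in run 1, with highest cells at 4788 and 3521 FPKM. For E15.5 they were 11 FPKM in run 2 and 14 FPKM in run 1, with highest cells at 10882 and 8233 FPKM. The last day thus had the lowest medians of the 6 later sets together with the cells of the highest level in the series. Of the 306 cells with Neurog3, 120 reached 1000 FPKM, 119 of them at E13.5 to E15.5.

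The eGFP transcript was scarcer, although every cell had been sorted for the protein. It was present in 141 of 658 cells (21.4%, 18.4 to 24.8%), against 306 of 658 (46.5%, 42.6 to 50.4%) for Neurog3. It stood in 4 of 73 cells (5.48%) of E11.5 and in 0 of 90 of E12.5, for which the exact interval reaches 4.02%. For E13.5 the share was 46.2% in run 2 and 17.6% in run 1. For E14.5 it was 31.8% in run 2 and 25.5% in run 1, and for E15.5 it was 19.5% in run 2 and 25% in run 1. The median level was 0 FPKM in every set, and the highest cell reached 775 FPKM, in run 1 of E15.5. In cells with the transcript the median was 33 FPKM, and in run 2 the cells with it held a median of 8 fragments, with 8 of the 79 at 1 fragment.

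**Figure D1:**
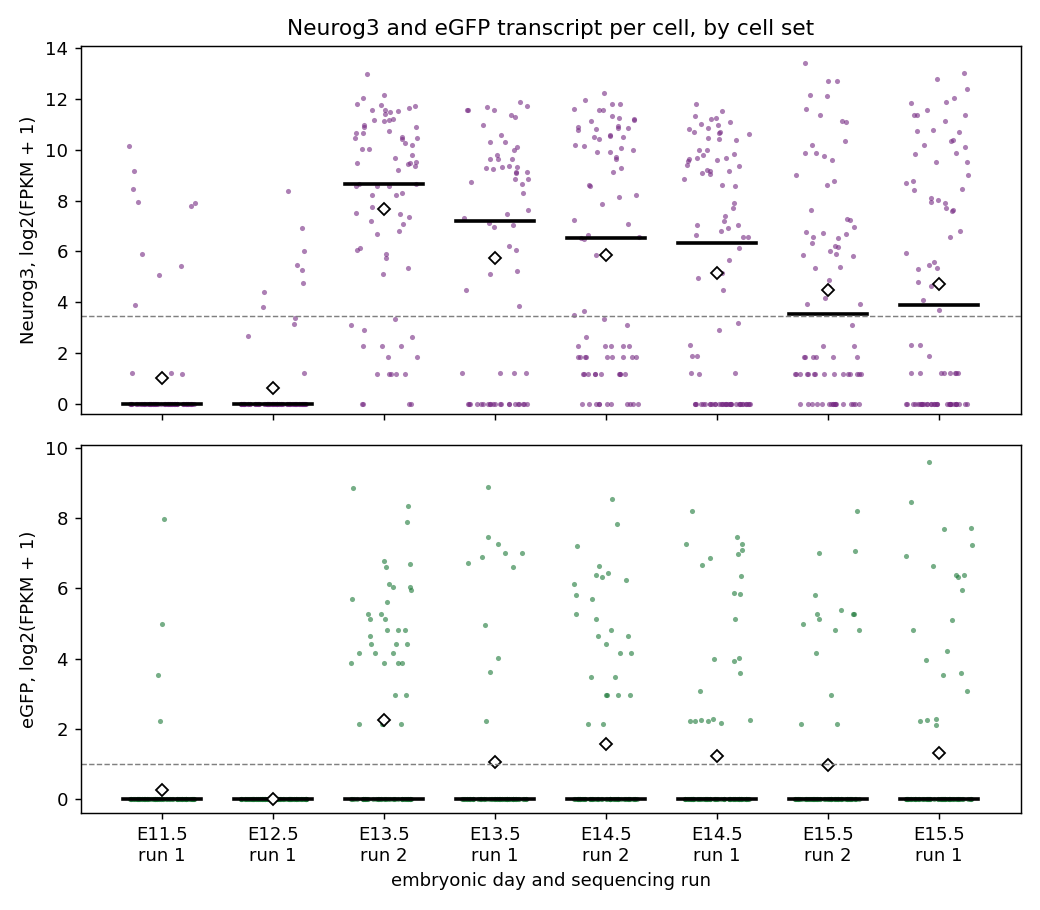
Level of Neurog3 (top) and eGFP transcript (bottom) in each kept cell as log2(FPKM + 1), by embryonic day and sequencing run; each point is a cell, black bars are medians, white diamonds are means, and the dashed line is the level from which a cell was counted. The E11.5 and E12.5 sets hold 10 and 8 cells above the line for Neurog3, and E12.5 holds 0 for eGFP.

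No slope over embryonic day passed the test, over all 8 sets. The slope was 7.87 percentage points a day for the share with Neurog3 and 3.16 points for that with eGFP, with exact permutation p of 0.294 and 0.378, both adjusted to 0.378 over 4 values, where the smallest p possible was 0.00278. Over E13.5 to E15.5 alone the slopes had the other sign, at -9.76 points a day for Neurog3 (exact permutation p = 0.0556, adjusted 0.111) and -4.82 points for eGFP (exact p = 0.5). Other-lineage cells filled most of both early sets, and their part in the slopes was not tested. Between runs, the mean share with Neurog3 over the 3 days was 60.7% in run 2 and 56.6% in run 1, and that with eGFP was 32.5% in run 2 and 22.7% in run 1. The eGFP difference, run 2 minus run 1, was 28.5 points for E13.5, 6.23 for E14.5 and -5.49 for E15.5, and with 3 days no exact p below 0.25 is possible (p = 1 for Neurog3 and 0.5 for eGFP).

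The eGFP transcript was found almost only where Neurog3 was found. Both were present in 137 cells, Neurog3 without eGFP in 169, eGFP without Neurog3 in 4, and neither in 348 (52.9%). Thus 97.2% of cells with eGFP transcript had Neurog3, while 44.8% of cells with Neurog3 had eGFP transcript. By set, the eGFP share among cells with Neurog3 and among other cells was 10% and 4.76% in the E11.5 set, and 0% in both for E12.5. For E13.5 it was 60% and 0% in run 2, and 27.9% and 0% in run 1. For E14.5 it was 57.4% and 0% in run 2, and 44.2% and 2.38% in run 1. For E15.5 it was 39% and 0% in run 2, and 48.9% and 0% in run 1. The mean over sets was 35.9% in cells with Neurog3 and 0.893% in other cells, a difference of 35 points, higher in 7 of 8 sets (exact sign-flip permutation test, two-sided, p = 0.0156, the smallest possible here).

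Of the 4 cells with eGFP but not Neurog3, 3 were E11.5 cells with acinar or tip markers, whose eGFP levels were 10.6, 30.5 and 249 FPKM and whose Neurog3 level was 0. The other was an E14.5 cell at 3.65 FPKM of eGFP, or 1 fragment, with 6.63 FPKM of Neurog3. Median log2 fragments were higher with eGFP than without it in 3 of 6 sets and lower in the other 3, with a mean difference of 0.0585 (exact permutation p = 0.438). In leukocyte-marked cells of E11.5 and E12.5, which came from the same eGFP gate, 0 of 41 held eGFP transcript. The exact interval reaches 8.6%, at a median of 593693 fragments. In those with acinar or tip markers it was 4 of 63 (6.35%) at a median of 588774 fragments. In cells of those days with endothelial markers it was 0 of 13, where the exact interval reaches 24.7%. Among those with no other lineage it was 0 of 46, where the interval reaches 7.71%, and 9 of these cells held Neurog3.

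From E13.5 to E15.5, the eGFP share was larger in each higher range of Neurog3 level. It was 0 of 119 cells below 1 FPKM of Neurog3, where the exact interval reaches 3.05%, and 1 of 88 (1.14%) from 1 to 10 FPKM. It was 7 of 53 (13.2%, 5.48 to 25.3%) from 10 to 100 FPKM, 43 of 116 (37.1%, 28.3 to 46.5%) from 100 to 1000 FPKM and 86 of 119 (72.3%, 63.3 to 80.1%) at 1000 FPKM or more. These intervals pool the cells of 6 sets and cover counting error only. By set, the share was 0% to 25%, 21.7% to 53.8% and 42.9% to 90.9% in the upper 3 ranges. Within each set it was larger in each higher one of these 3 ranges. Median fragments were 524365, 518342 and 674224 in these 3 bins, so the highest bin was also the deepest, and the part of depth was not tested. With cells thinned to 300000 fragments, which left out 68 cells, the share with eGFP was 18.3%, against 21% in the same cells unthinned.

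The levels of both transcripts were then compared cell by cell. Spearman's rho across all cells of a set was 0.42 to 0.71 in the 6 later sets, and across the cells with both it was 0.18 to 0.65, both given as descriptions of cells that share a library preparation. The median Neurog3 level in cells with eGFP exceeded that in cells with Neurog3 alone in each of these sets, with 1029 against 554 FPKM in run 1 of E13.5 and 1778 against 80.1 FPKM in run 2 of E15.5 as the narrowest and widest ratios. Per kilobase, mean eGFP was 2.81 per 100 of mean Neurog3 over all kept cells, and 1.73 to 3.72 in the later sets. Of the cells with Neurog3 at E13.5 to E15.5, 152 of 288 held no eGFP fragment.

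**Figure D2:**
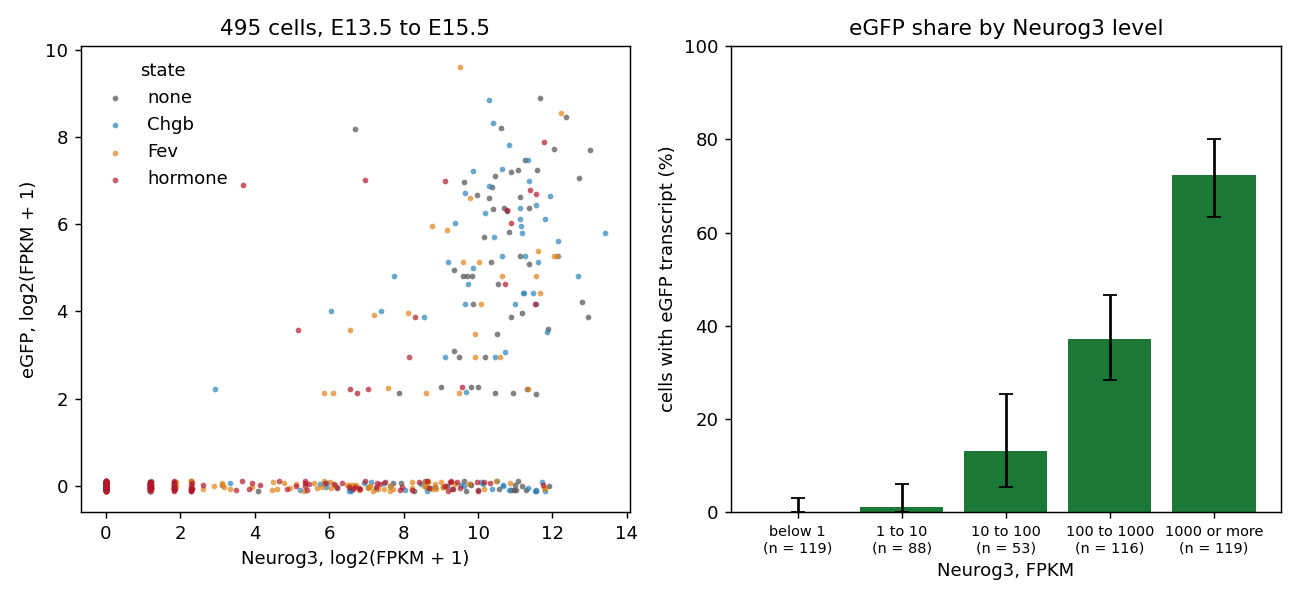
Left, eGFP against Neurog3, both as log2(FPKM + 1), in 495 cells of E13.5 to E15.5, coloured by state and with cells at 0 eGFP spread slightly; right, share of cells with eGFP transcript in 5 ranges of Neurog3 level, with 95% exact binomial intervals. The share is 0 of 119 cells below 1 FPKM and 72.3% at 1000 FPKM or more.

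Cells were then ordered by later genes that do not include Neurog3 or eGFP. The hormone state held any of Ins1, Ins2, Gcg, Ghrl, Sst and Ppy at 100 FPKM or more; the Fev state Fev at 10 FPKM or more and no hormone; the Chgb state Chgb at 10 FPKM or more with neither; and the state called none held none of these. With the cells of the 6 later sets pooled, both transcripts were most frequent in the state with none of these genes and least in hormone cells. By set, the Neurog3 share was lower in Fev than in hormone cells in both sets of E13.5. The eGFP share was lower in Fev than in hormone cells in those sets and in run 1 of E14.5. Hormone cells were lowest in the other later sets. At E13.5 to E15.5, Neurog3 was present in 73 of 76 cells (96.1%) of the state with none, 77 of 117 (65.8%) of the Chgb state, 76 of 136 (55.9%) of the Fev state and 62 of 166 (37.3%) of hormone cells. The eGFP transcript was present in 49 (64.5%), 45 (38.5%), 26 (19.1%) and 17 (10.2%) of the same cells. The mean Neurog3 level in these states was 1826, 1078, 439 and 218 FPKM, and the median 1396, 351, 43.2 and 2.58 FPKM. Over all 658 kept cells, where E11.5 and E12.5 add 51 and 79 cells with none to reach 206, the order differed. Neurog3 was present in 39.8%, 61.8%, 56.8% and 35.2% of the same states and eGFP in 25.2%, 35.1%, 18.7% and 9.34%.

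Both shares were lower in Fev cells than in cells with none in each of the 6 later sets. The Neurog3 share in Fev cells and in cells with none was 64.3% and 100% in run 2 of E13.5, and 46.7% and 88.2% in run 1. For E14.5 it was 56.5% and 100% in run 2, and 48.3% and 100% in run 1. For E15.5 it was 63.6% and 100% in run 2, and 52.6% and 93.8% in run 1. The difference was -41.7 points over 6 sets, lower in all 6 of those compared (exact sign-flip permutation p = 0.0312, adjusted 0.05 over 8 contrasts). For eGFP it was -51 points, 18.4% in Fev cells against 69.4% in cells with none, again lower in 6 of 6 (exact p = 0.0312, adjusted 0.05). The early sets did not enter this contrast: E11.5 held 3 Fev cells, all 3 with Neurog3 and 0 with eGFP, against 5.88% of its cells with none for each transcript, and E12.5 held no Fev cell. Hormone cells had a Neurog3 share of 33.2% against 74.4% in cells with none as means over 8 sets (-41.3 points, exact p = 0.0312, adjusted 0.05), with 2 sets, E11.5 and E12.5, higher by 8.4 and 3.52 points. Their eGFP share was 9.33% against 52.8% (-43.5 points, lower in 7 of 8 sets with E12.5 at 0% in both; exact p = 0.0156, adjusted 0.05).

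Smaller steps were less clear. Chgb cells had an eGFP share of 33.5% against 60.3% in cells with none (-26.8 points, lower in 6 of 7 sets, exact p = 0.0312, adjusted 0.05), and a Neurog3 share of 58.8% against 84% (-25.2 points, exact p = 0.0469, adjusted 0.0625), which did not pass. Without E11.5, where other lineages fill most of the state with none, the Neurog3 difference was -32.6 points, lower in 6 of 6 sets, with an adjusted exact p of 0.0417. From Fev to hormone cells the Neurog3 share was lower by 15.4 points in hormone cells on average, at 40% against 55.3%, with 2 of 6 sets higher (exact p = 0.125, adjusted 0.143). The eGFP share was 12.4% in hormone cells against 18.4% in Fev cells, with 3 of 6 sets higher (exact p = 0.438). All 5 passing values stood at the threshold of 0.05 itself, and each was above it, with its sign kept, under 6 other settings and wherever a later set was left out.

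**Figure D3:**
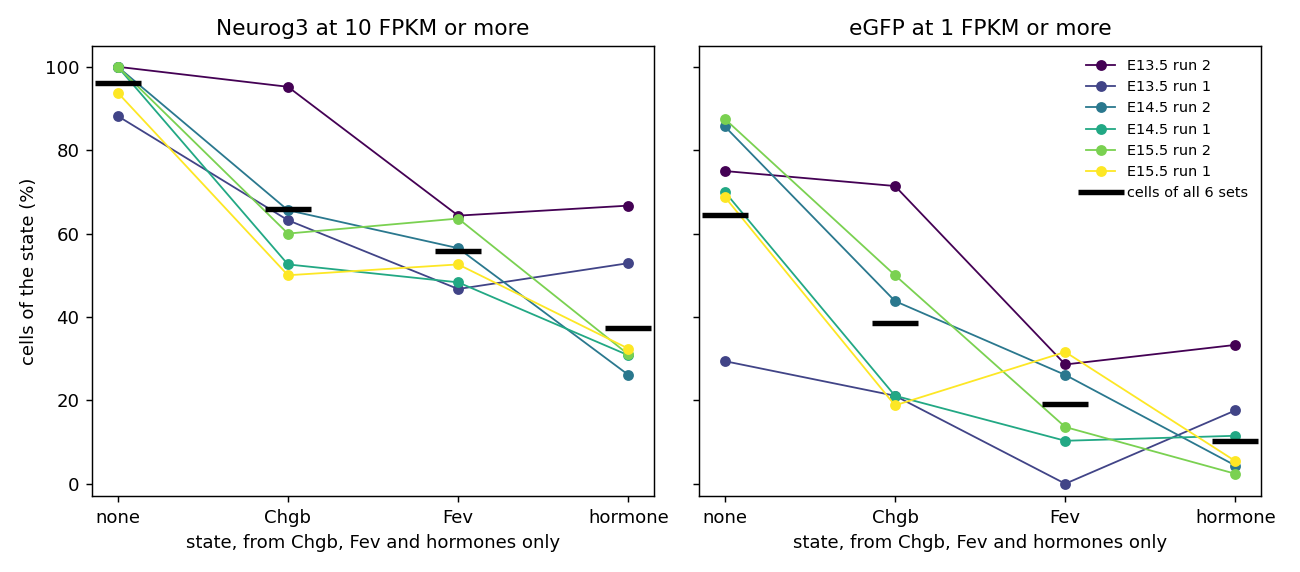
Share of cells with Neurog3 (left) and with eGFP transcript (right) in 4 states defined by Chgb, Fev and the hormones, in each of the 6 later sets; each coloured line is a set and the black bar is all cells of the 6 sets. The bars run from 96.1% to 37.3% for Neurog3 and from 64.5% to 10.2% for eGFP between the state with none and the hormone state.

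The states of the cells with each transcript were also counted. Of the 137 cells with eGFP at E13.5 to E15.5, 35.8% were in the state with none and 12.4% in the hormone state, while of the 152 with Neurog3 alone 15.8% and 29.6% were in those states. Of the 206 cells with neither, 1.46% and 50.5% were. These shares are a description over cells, without a test of their own.

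How often Neurog3 stood beside each hormone gene is given as counts of cells from E13.5 to E15.5, with no test. Ghrl, the gene of ghrelin, had Neurog3 in 20 of 36 cells (55.6%), and Sst, that of somatostatin, in 7 of 16 (43.8%). Ppy, that of pancreatic polypeptide, had it in 17 of 52 (32.7%) and Gcg, that of glucagon, in 18 of 57 (31.6%). The insulin genes had it in 19 of 64 (29.7%) for Ins2 and 7 of 34 (20.6%) for Ins1, and as close paralogs these share some sequence. The eGFP transcript was in 11 of 57 cells (19.3%) with Gcg and in 1 of 34 (2.94%) with Ins1. Some cells hold more than 1 hormone, so the groups overlap.

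Genes were next ranked by how closely they followed each transcript across cells, as the mean over the 6 later sets of Spearman's rho within a set, among 11639 genes seen in at least 10% of cells. The eGFP transcript ranked 5th of these for Neurog3, at 0.61, and Neurog3 ranked first for eGFP. Ahead of it for Neurog3 were Smarcd2, a chromatin remodelling subunit (0.65), Gpx2, a glutathione peroxidase (0.63), Stmn1, a regulator of microtubules (0.62), and Mdk, a secreted growth factor (0.62). Cbfa2t3, Gadd45a, a growth arrest gene, Amotl2, an adaptor at cell junctions, and Mfng, a glycosyltransferase that modifies Notch, each had 0.61, and Btg2, an antiproliferative gene, 0.59. At the other end stood Scgn, a calcium sensor (-0.62), Pam, which amidates peptides (-0.61), Fam183b (-0.61), Slc38a5, an amino acid transporter (-0.59), and Cpe, a peptide processing enzyme (-0.58). Chgb stood at -0.50 and Fev at -0.25 with Neurog3. The genes closest to eGFP after Neurog3 were Amotl2 (0.56), H19, an imprinted RNA (0.54), Tead2, a DNA-binding factor (0.53), and Tmsb4x, an actin-binding peptide (0.52). These are correlations over cells and carry no p.

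**Figure D4:**
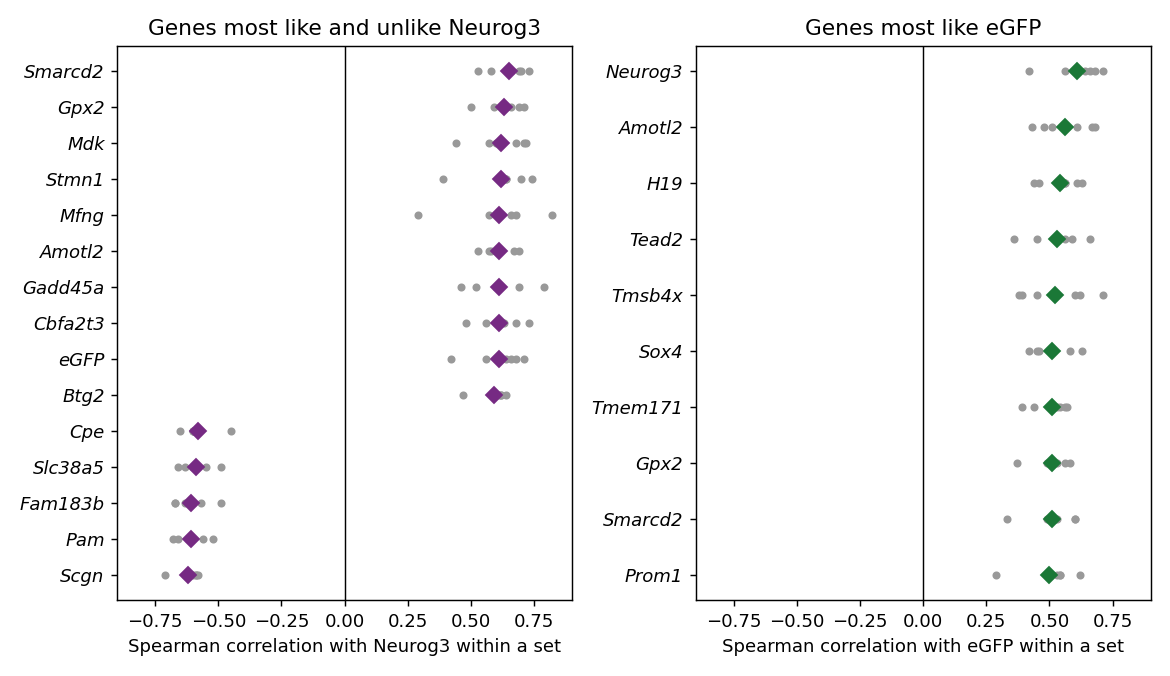
Mean Spearman correlation within a cell set of named genes with Neurog3 (left) and with eGFP (right), as diamonds, with each of the 6 later sets as a grey point. The eGFP transcript has a mean of 0.61 with Neurog3, between 0.42 and 0.71 in the sets.

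Cells with Neurog3 were then set against other cells across all genes, in the 6 later sets, with limma on log2(mean FPKM + 1) and the set as a block. This scale understates changes of low genes. Of 15702 genes tested, 982 (6.25%) passed an adjusted p of 0.05, of which 479 (3.05%) were higher and 503 (3.2%) lower in cells with Neurog3. Without any 1 of the sets other than run 2 of E15.5, 217 to 280 genes were higher and 213 to 269 lower, and without that set 599 were higher and 392 lower, while all 982 kept their sign in each of those 6 fits. The eGFP transcript had the largest difference among the genes named for this contrast, at 5.08 ± 0.25 (SE) log2 units (adjusted p = 0.000161, higher in 6 of 6 sets). Its set means were 33.3, 35.4, 30, 33.9, 52.1 and 22.1 FPKM in cells with Neurog3, against 0, 0, 0.087, 0, 0 and 0 FPKM in other cells, from run 1 of E13.5 to run 2 of E15.5. With E11.5 and E12.5 added it no longer passed, at 3.56 log2 units with adjusted p 0.0773, and 183 of the 982 calls remained. Among genes described next, Id1, Rbpj and Ttr also lost their calls there (adjusted p 0.0711, 0.289 and 0.0928).

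Among the transcription factors downstream of Neurog3, 6 of 20 were higher, 3 lower and 11 did not pass, with a median of 0.40 log2 units against 0.00 over all genes. Pax4, a factor of early beta and delta cells, averaged 990 ± 514 FPKM in cells with Neurog3 and 282 ± 293 FPKM in other cells (SD over 6 sets, 2.09 log2 units, SE 0.24, adjusted p = 0.00377). Cbfa2t3 averaged 30.9 ± 7.04 and 6.43 ± 3.45 FPKM in the same groups (adjusted p = 0.00461), and Nkx2-2, Insm1, Nhlh1 and Neurod2 were the others higher, with adjusted p of 0.0113, 0.0214, 0.0124 and 0.0241. Among the lower ones, Pax6, a factor of islet cells, averaged 168 ± 47 FPKM in cells with Neurog3 and 390 ± 131 FPKM in other cells (-1.19 log2 units, adjusted p = 0.011). Isl1, which is also needed in islet cells, averaged 320 ± 112 and 802 ± 199 FPKM in the same groups (-1.39, adjusted p = 0.0281). With E11.5 and E12.5 added, Pax6 differed by -0.33 and Isl1 by -1.55 log2 units, and both lost their calls (adjusted p 0.791 and 0.195), as did Nhlh1 (0.0967) and Neurod2 (0.125). With 1 set left out, Insm1, Isl1 and Neurod2 lost theirs in 4, 3 and 4 of the 6 fits (adjusted p 0.0573 to 0.0906). The factors named here other than Pax4 had set means that did not overlap between groups. How many of all genes tested did so was not counted, here or for the genes below.

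Of the Notch genes, 3 of 13 tested were higher and none lower, and 8 more were too low to test. These were Mfng, Hes6 and Rbpj. Mfng stood at 367 ± 163 FPKM in cells with Neurog3 and 67 ± 58.4 FPKM in other cells (2.60 log2 units, adjusted p = 0.00337). Hes6, a member of the Hes family, differed by 1.90 (adjusted p = 0.017). Rbpj, the DNA-binding partner of Notch, differed by 1.25 (adjusted p = 0.036). The Rbpj call was lost without any 1 of the sets other than run 2 of E15.5 (adjusted p 0.0805 to 0.114). Hes6 lost its call without run 2 of E13.5, run 2 of E14.5 or run 1 of E15.5 (0.0538 to 0.06). The ligand Dll1 differed by 1.82 log2 units with an adjusted p of 0.0818. Of 8 partner and Id genes, Id1, an inhibitor of basic helix-loop-helix factors, was higher, at 51.7 ± 15.3 against 4.33 ± 4.73 FPKM (3.91 log2 units, adjusted p = 0.0113), and the other 7 did not pass. Among 12 progenitor factors, Sox4 (2.04) and Tead2 (3.62, adjusted p = 0.00573 for both) were higher and 10 did not pass.

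Of 18 cell cycle genes tested, 9 were higher in cells with Neurog3 and none lower, with a median of 1.49 log2 units. They mixed genes of exit from the cycle, Gadd45a (3.29), Btg2 (1.41) and Cdkn1a (1.11), with genes of replication and mitosis, Ccnb1 (2.24), Mcm5 (2.46), Mcm2, Cdk1, Ube2c and Birc5. The calls of those 6 rested on the setting. All 6 were lost with E11.5 and E12.5 added, where Ccnb1 differed by 0.86 and Mcm5 by 1.30 log2 units (adjusted p 0.69 and 0.431). With Neurog3 counted from 50 FPKM, Ccnb1, Cdk1, Ube2c and Birc5 did not pass, at up to 1.29 log2 units (adjusted p 0.275 to 0.509). With 1 set left out, Ccnb1 kept its call in all 6 fits, Mcm5 lost it without run 1 of E15.5 (0.0502), and the other 4 lost theirs in 2 to 5 fits. Cdkn1a lost its call without run 2 of E13.5 or run 1 of E14.5 (0.06 and 0.0634). Gadd45a averaged 180 ± 85.4 FPKM in cells with Neurog3 and 17 ± 8.52 FPKM in other cells (adjusted p = 0.00246). Of 18 hormone and granule genes, 13 were lower and none higher, with a median of -1.56 log2 units. Gcg averaged 285 ± 370 FPKM in cells with Neurog3 and 6058 ± 6395 FPKM in other cells (-5.01 log2 units, adjusted p = 0.00377), and was lower in all 6 sets. Iapp averaged 508 ± 670 against 4302 ± 5280 FPKM (-3.06), Chgb 3554 ± 720 against 8311 ± 3309 FPKM (-1.15, adjusted p = 0.0209) and Scg3 102 ± 35.3 against 296 ± 82.2 FPKM (-1.56). With E11.5 and E12.5 added, Chgb and Scg3 differed by -0.46 and -0.89 log2 units and did not pass (adjusted p 0.714 and 0.332). The Chgb call was lost without run 2 of E13.5, either set of E14.5 or run 1 of E15.5 (adjusted p 0.0595 to 0.0701), and in cells with no hormone Gcg differed by -0.30 and Iapp by -2.12 log2 units (0.733 and 0.285). Fev, Ins1, Ins2, Ghrl, Sst and Ppy did not pass, with adjusted p of 0.649, 0.0625, 0.669, 0.421, 0.967 and 0.367. With log2 averaged over cells Ins1 and Ppy passed as lower, at -1.22 and -1.02 log2 units (limma, adjusted p 0.0146 and 0.00225). Ins1 also passed with a pseudocount of 0.1 (-2.76, adjusted p 0.0196).

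Other genes that passed lay outside these lists. Gpx2 averaged 682 ± 241 FPKM in cells with Neurog3 and 126 ± 58.3 FPKM in other cells (2.48 log2 units), with sets that did not overlap. Ttr, a carrier of thyroid hormone, averaged 670 ± 354 against 2318 ± 1060 FPKM (-1.81). Duct or trunk markers summed to 777 FPKM (519 to 1094 by set) in cells with Neurog3 and 224 FPKM (118 to 657) in other cells, with 5 of 6 markers at a mean of 10 FPKM or more in each. Endocrine markers summed to 5348 FPKM (4361 to 7192) and 11731 FPKM (9524 to 16616) in the same groups, with all 8 at that mean in each. Leukocyte markers summed to 6.54 FPKM (3.95 to 10.5) and 130 FPKM (0.983 to 593). In the later sets 1 cell was counted as leukocyte-marked, in run 2 of E15.5 and without Neurog3. The part of leukocyte markers in these differences was not tested. Among 67 named genes, 24 lie in a locus shared with another entry, Gpx2 and Rab15 in the same one.

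**Figure D5:**
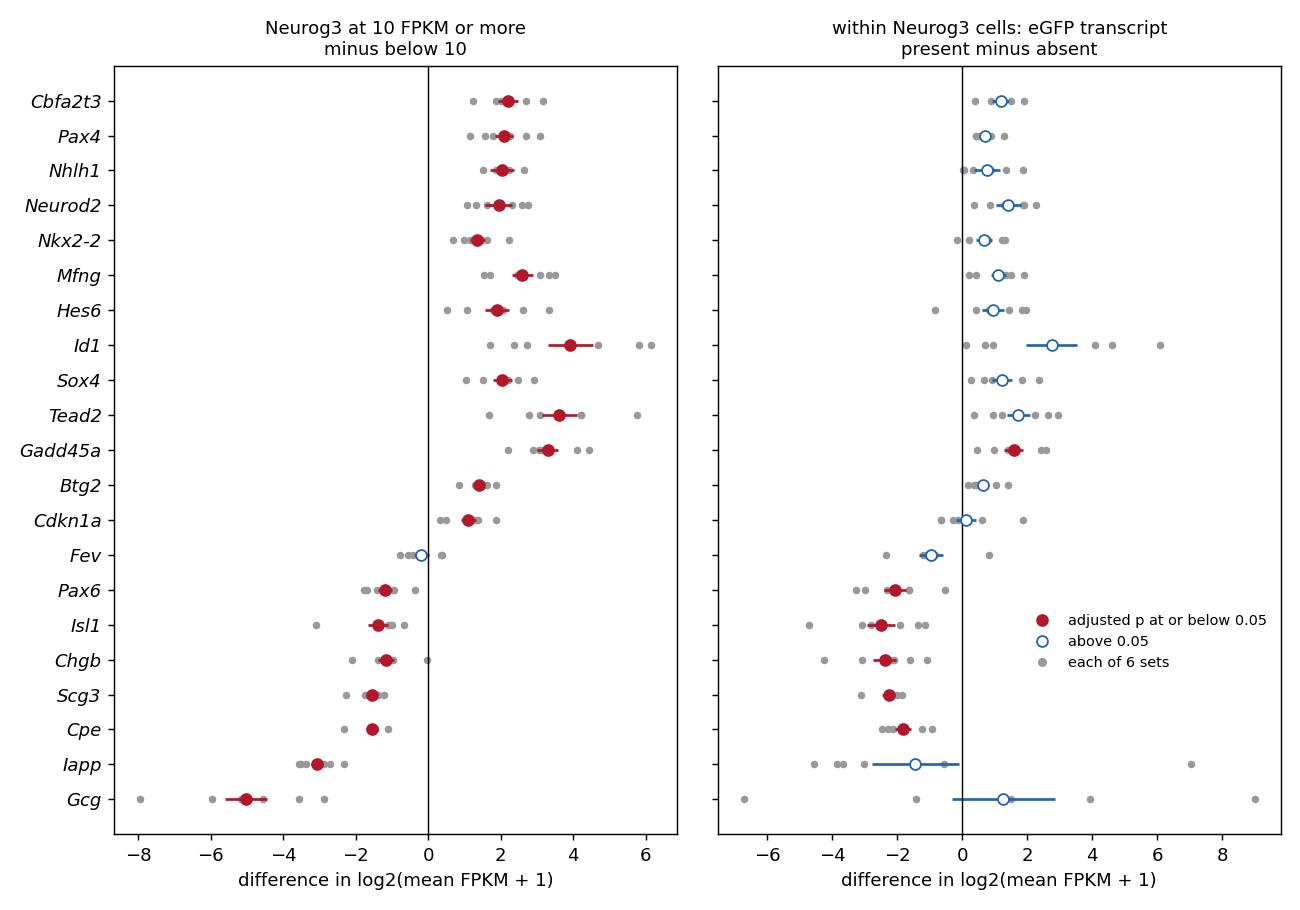
Difference in log2(mean FPKM + 1) for genes of the lists, between cells with Neurog3 and other cells (left) and, within cells with Neurog3, between cells with and without eGFP transcript (right); large points are fitted differences, filled where the adjusted p was at or below 0.05, bars are SE, and small grey points are the 6 sets. Gcg is at -5.01 on the left, and Scg3 at -2.26 on the right.

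Within cells with Neurog3, those with eGFP transcript differed in few genes from those without. Of 15216 genes, 109 (0.716%) passed, with 33 (0.217%) higher and 76 (0.499%) lower in cells with eGFP. In this limma fit 1927 genes had an unadjusted p under 0.05. Leaving out any 1 set, whichever it was, left 0 to 6 genes higher and 0 to 35 lower. Without run 1 of E14.5 or run 2 of E15.5 limma called 0 genes, with 1661 and 1618 at an unadjusted p under 0.05, and all 109 kept their sign in each of the 6 fits. Averaging log2 values over cells gave 329 higher and 281 lower, a different split. Neurog3 itself averaged 1938 ± 624 FPKM in cells with eGFP and 645 ± 233 FPKM in those without, over 6 sets of 1145 to 2910 and 234 to 856 FPKM that did not overlap, with a difference of 1.64 log2 units and an adjusted p of 0.0794. With log2 averaged over cells Neurog3 passed, at 2.17 log2 units (limma, adjusted p 7.29e-05). Among cells at 1000 FPKM of Neurog3 or more, in 5 sets, 1 gene passed and 748 had an unadjusted p under 0.05.

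Genes of hormones and their granules were among those lower with eGFP. Of 18 hormone and granule genes, 7 were lower and none higher, with a median of -2.24 log2 units against -0.08 over all genes. Scg3 averaged 34.6 ± 17.4 FPKM in cells with eGFP and 162 ± 50.7 FPKM in those without (-2.26 log2 units, SE 0.20, adjusted p = 0.0203). Its set means were 28.2, 20.3, 36, 19.1, 66.6 and 37.5 FPKM with eGFP, and 117, 99.8, 165, 174, 244 and 169 FPKM without, so the groups did not overlap. Chgb averaged 1236 ± 621 and 5755 ± 1680 FPKM (-2.38, adjusted p = 0.0311). Pax6 (-2.06) and Isl1 (-2.50) were the 2 of 20 downstream factors that passed, both lower. The Scg3 call was lost without run 1 of E14.5 or run 2 of E15.5 (adjusted p 0.0866 and 0.0637), that of Chgb in 4 of the 6 fits, that of Pax6 in 5 and that of Isl1 in 6. Other genes lower by 1.46 to 3.09 log2 units included Tspan7, Mageh1, Entpd3, Nt5c3, Cryba2, Pam, Cd47, Hap1 and Akr1c19. Hormone cells made up 3.7% to 25% of the cells with eGFP and 17.2% to 48% of those without, and the part of this was not tested.

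Higher with eGFP were Sparc, a matrix protein, at 298 ± 54.3 FPKM against 127 ± 62.9 FPKM (1.32 log2 units, adjusted p = 0.0278), Tmsb4x (1.60), Prom1, a membrane protein of epithelial cells (1.67), Habp2 (2.01), Stmn1 (0.88), Smarcd2 (1.51), Rnf114 (1.01), Ly6e (1.12), Gng13 (1.81) and Enc1 (1.73). Of the 14 Notch genes, 8 partner and Id genes and 13 progenitor factors tested, none passed, and Gadd45a was the 1 of 19 cell cycle genes that did (1.58, adjusted p = 0.0453, lost in each of the 6 fits with a set left out). Dll1 and Id1 differed by 2.79 and 2.75 log2 units with adjusted p of 0.101 and 0.171. Fev, Gcg, Ghrl, Ins1, Ins2, Sst and Ppy did not pass here either, with adjusted p of 0.327, 0.769, 0.236, 0.417, 0.557, 0.604 and 0.0787. With log2 averaged over cells, limma called more genes. Mfng, Dll1, Id1, Sox4 and Tead2 were higher by 1.23 to 2.78 log2 units (adjusted p 2.47e-05 to 0.00811). Id2, Pdx1, Fev and Ppy differed by -0.92 to -1.56 (adjusted p 0.00787 to 0.0323). With each cell scaled to the same sum, Dll1 and Tead2 passed as higher and Id2 and Pdx1 as lower (limma, adjusted p 0.0294 to 0.049).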

How the data were processed

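Single eGFP-sorted cells were profiled by SMART-seq with Nextera XT libraries, per the labels' protocols. Per the submitters' processing notes, the tools were TopHat2 2.0.13 and Cufflinks 2.2.0 with build mm10. The FPKM values are as the authors deposited them; the labelled scales are 1, and the values were not scaled to a cell's own depth. Kept cells had at least 100000 fragments and 1500 genes at 1 FPKM; 63 of 721 were left out, the depth range is in the text, no doublet caller was run, and 0 value columns were unmapped. Labels give no animals, so the cell set (day and run) was the unit.

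Shares carry 95% Clopper-Pearson intervals. Set-level values were tested by exact sign-flip or permutation tests, two-sided, and adjusted by Benjamini-Hochberg. Contrasts across genes used limma 3.58.1 (R 4.3.3; trend, set as block) on log2(mean FPKM + 1), for genes with a mean of at least 1 FPKM; Python 3.11.15, scipy 1.17.1 and pandas 2.3.3 did the rest. Tested on simulated data, the fit recovered 10.0% and 42.0% of genes changed by 1 and 2 log2 units in the Neurog3 contrast and 1.0% and 28.0% in the eGFP contrast. The members and lists were chosen with earlier results of these data known. The named genes are the fixed hormone, Fev and Chgb genes, the 10 highest and 5 lowest by correlation, up to 10 higher and 10 lower by adjusted p, and up to 4 members of each list; others of a list were named after their values were seen, and a list member that the rule takes is not reported here. Alternatives covered thresholds, filters, pseudocount, averaging, depth scaling, thinning and leaving out each set.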

Additional observations from a re-analysis of the deposited data

Results flagged for a closer look

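An entry of the deposited table that is a cloning vector, which no comparison here uses, was above 0 FPKM in 80 of 658 kept cells, with a median of 1.37 FPKM in those cells and a highest value of 398 FPKM. It was present in 21 of the 141 cells with eGFP transcript.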

How the results depend on the processing

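By replicate number, no paired analysis was possible because these numbers only name single cells; pairing was by cell set, or by day for the runs. The difference in eGFP share by Neurog3 kept its sign and its call under every alternative run, between 31.5 and 40.1 points with 1 set left out. The day slopes ranged over 1.75 to 5.57 points (eGFP share), 4.64 to 11.3 points (Neurog3 share), 0.101 to 0.292 (eGFP level) and 0.384 to 1.07 log2 units (Neurog3 level) with 1 set left out, and turned to -4.82, -9.76, -0.256 and -1.05 over E13.5 to E15.5 only.

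For the state contrasts, with 5 sets the smallest exact p is 0.0625, so leaving out a set can end the call by construction. Those ranges were -32.6 to -21.5 points (Neurog3, Chgb minus none), -42.9 to -39.6 (Fev minus none), -48.4 to -36.6 (hormone minus none) and -19.7 to -11.9 (hormone minus Fev), and for eGFP, in the same order, -31.7 to -23.0, -55.3 to -46.5, -49.7 to -37.5 and -10.6 to -1.88. The 5 passing contrasts (Neurog3 Fev and hormone, eGFP Chgb, Fev and hormone, each minus none) missed the threshold with the same sign under other settings. They were -48.1, -46.0, -17.5, -40.3 and -33.7 with eGFP at 10 and Neurog3 at 50 FPKM. With hormones at 10 FPKM they were -41.7, -34.0, -19.8, -52.9 and -35.5, and with hormones at 1000 FPKM -42.1, -49.8, -29.6, -52.0 and -49.3. After removal of E12.5 and run 1 of E13.5, where GC-rich transcripts were low, they were -41.7, -49.7, -29.9, -55.3 and -56.0. With each cell scaled to the same sum they were -38.1, -38.2, -19.5, -51.4 and -41.6, and thinned to 300000 fragments -42.1, -42.9, -18.8, -45.1 and -38.5. In 4 of these settings both Fev contrasts kept an exact sign-flip p of 0.0312, the smallest for 6 sets. Their adjusted p was then 0.0625, as it also depends on the p of the other contrasts. With hormones at 10 FPKM and in the GC setting both Fev contrasts rested on 5 sets. What lay behind the other misses was not tested. Neurog3 Chgb minus none passed over E13.5 to E15.5 only (-32.6), and eGFP hormone minus Fev turned to 0.989 with hormones at 10 FPKM. The settings on GC, scaling and thinning, and that of Neurog3 at 1000 FPKM, were chosen after seeing the data.

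Genes higher and lower in the Neurog3 contrast numbered 100 and 85 over all 8 sets, 879 and 1173 with log2 averaged over cells, and 262 and 254 with no filter; 230 were lower without hormone cells, 730 were higher with cells scaled, and with 1 set left out 217 to 599 were higher and 213 to 392 lower. In the eGFP contrast they numbered 329 and 281 with log2 averaged over cells, 0 and 0 with no filter (limma, 2214 at an unadjusted p under 0.05), and 1 and 0 with Neurog3 at 1000 FPKM or more; 75 were higher with cells scaled, and with 1 set left out 0 to 6 were higher and 0 to 35 lower. Named calls of the Neurog3 contrast were also lost without hormone cells (Insm1, Cdk1 and Birc5, adjusted p 0.0663, 0.0691 and 0.182), with no filter (Isl1, Chgb, Rbpj, Mcm2, Cdk1, Ube2c and Birc5, 0.0508 to 0.0974), with log2 averaged over cells (Cdk1, Ube2c and Birc5, 0.0595 to 0.486) and with pseudocount 0.1 (Cdk1, 0.051). With Neurog3 at 1000 FPKM or more, Cryba2 and Hap1 turned to 0.16 and 0.21 log2 units.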
